A study of Ovis aries with 4 samples.

Results

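The 5 apoptosis regulator genes CASP9, FADD, BCL2L1, MCL1 and BIRC2 were followed through the N6-methyladenosine (m6A) peak lists of sheep ovaries at 2 ages. They were taken by gene name from the deposited lists and are 5 of the 5261 genes with a peak at either age. They had 6 of the 3656 peaks of the aged list and 2 of the 4378 peaks of the young list. The aged group was ovarian tissue of Cele black sheep, a domestic breed, at 5 to 6 years. The young group was the same tissue of the same breed at 1 to 2 years, and no treatment is given for either. At each age RNA fragments were captured with an antibody against m6A and sequenced beside an input library that was not captured, and the single list deposited for each age was used. Peaks are segments of transcripts that were enriched by the capture, and the fold enrichment, p and adjusted p quoted for them are the authors' own values. Because each age has a single list, no difference between the ages could be checked against replicates and none was tested. No listed peak had a fold below 1.5 or a p above 0.049, so a gene without a listed peak may still be methylated. The depth of the libraries and the abundance of these transcripts are unknown here. The whole ovary holds many cell types, and fewer cells of a type cannot be told apart from less RNA per cell.

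Apoptosis is run by 2 connected routes. In the mitochondrial route, proteins of the BCL2 family decide whether the outer mitochondrial membrane opens, cytochrome c is released, and caspase-9 is activated on the apoptosome. In the death receptor route, receptors of the tumour necrosis factor family recruit the adaptor FADD, which gathers caspase-8, while IAP proteins such as that of BIRC2 steer the receptor complexes towards survival signalling. In the ovary, apoptosis of granulosa cells accompanies follicular atresia, by which most follicles are lost. The mark m6A sits mainly near stop codons and in 3′ untranslated regions (3′ UTRs) of messenger RNA, where reader proteins acting on decay and translation bind it.

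Of these genes, 3 were listed in the aged ovary alone, 1 at both ages and 1 in the young ovary alone. CASP9 and FADD, which promote death, had 2 aged peaks each and no young peak, and BCL2L1, which restrains it, had 1 aged peak and no young peak. MCL1, another restraining gene, had 1 young peak and no aged peak, and BIRC2 had 1 peak at each age. Of all 5261 genes with a peak, 26.9% were listed in the aged ovary alone, 31.8% at both ages and 41.3% in the young ovary alone. A set of 5 genes that was put together with these results known is too small to be read against those shares. Genes with more than 1 peak made up 15.1% of the genes of the aged list and 12.1% of those of the young list.

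CASP9 encodes the initiator caspase of the mitochondrial route, which is activated on the apoptosome and then activates further caspases. Its 2 aged peaks lay on the plus strand of chromosome 12, and both were labelled 3′ UTR. The 5′ one (51329699 to 51329848) had a fold of 2.67 and an adjusted p of 0.00209. The 3′ one (51332283 to 51332531) had a fold of 2.17 and an adjusted p of 9.12e-06, and 2434 bases separated the pair. The 5′ peak thus had the higher fold and the larger p, and by fold it was the strongest aged peak of the 5 genes. Among all aged peaks only 389 had a higher fold, but 2944 had a smaller p. The build of the deposited coordinates is not named in the sources used here.

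The assignment of the CASP9 peaks to CASP9 has a limit. In a gene table of the sheep assembly ARS-UI_Ramb_v3.0, the 3′ peak began 1624 bases past the end of CASP9 and lay wholly within the neighbouring protein-coding gene LOC101111210. The 5′ peak lay inside CASP9 but shared 84 of its 150 bases with the same neighbour, because the ends of these genes overlap in the table. The table gives no strand for the neighbour, and LOC101111210 had no peak of its own in either list. Peaks wholly outside their gene in the table were uncommon, 41 of 3637 matched aged peaks (1.13%) and 48 of 4354 matched young peaks (1.10%). The table was used for distances because its gene ends coincided with peak boundaries. On the chromosomes of the 5 genes, 79 of 819 aged and 284 of 1038 young peaks ended at the last base of their gene in the table, and 1 aged and 3 young peaks missed it by 1 base. Without the 3′ CASP9 peak, the aged list held 5 peaks of these genes.

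FADD encodes the adaptor that links death receptors to caspase-8. Both of its aged peaks lay on the plus strand of chromosome 21. The 5′ one (43775194 to 43775444) was labelled exon and had a fold of 2.03 and an adjusted p of 1.10e-06. The 3′ one (43778238 to 43778588) was labelled 3′ UTR and had a fold of 2.14 and an adjusted p of 0.000105. They were nearly equal in fold, and the exon peak had the smaller p. The distance between them was 2793 bases. In the gene table the exon peak began 1938 bases from the 5′ end of the gene and the 3′ UTR peak ended 1347 bases before its 3′ end, so neither touched a gene end. FADD was the one gene of the 5 with peaks under different labels.

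BCL2L1 encodes BCL-xL, which keeps the outer mitochondrial membrane closed, and in human cells alternative splicing of its transcript also gives the short form BCL-xS. Its single aged peak lay on the minus strand of chromosome 13 (60939466 to 60939766), was labelled exon and had a fold of 1.57 and an adjusted p of 6.92e-07. It had the lowest fold and the smallest p of the 6 aged peaks of these genes. Of all aged peaks, 3180 had a higher fold and 1458 a smaller p. The peak began 1944 bases from the 5′ end of the gene in the table, which is 52830 bases long, and was the one farthest from a 3′ end, at 50585 bases. These distances run along the genome with introns included, so they do not give the place of the peak on the transcript. It shared its exon label with the 5′ FADD peak and with 15.3% of all aged peaks.

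MCL1 encodes a short-lived relative of BCL-xL that holds the same membrane closed. Its single young peak lay on the minus strand of chromosome 1 (100592349 to 100592546), was labelled 3′ UTR and had a fold of 2.47 and an adjusted p of 1.15e-10. It ended 2172 bases before the 3′ end of the gene in the table, close to the middle of a gene of 4686 bases. Its fold was above the young median of 2.05, but its p was on the weak side of its list: 1196 young peaks had a higher fold and 3614 a smaller p. No aged peak lay in MCL1.

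BIRC2 encodes cIAP1, a ubiquitin ligase that acts on RIPK1 in tumour necrosis factor receptor complexes. Its aged peak (6022814 to 6023064) had a fold of 1.64 and an adjusted p of 0.000123. Its young peak (6022614 to 6022814) had a fold of 2.50 and an adjusted p of 4.57e-08. Both lay on the minus strand of chromosome 15 and were labelled 3′ UTR. They met in 1 base, the aged peak lying on the 5′ side of the young one, and together covered 451 bases near the 3′ end of the gene. The aged peak stopped 549 bases and the young peak 349 bases before that end in the table. Among pairs of peaks that overlapped within a gene, such minimal contact was rare, 41 of 1515 (2.71%), with a median overlap of 151 bases. Of the 1671 genes listed at both ages, however, only 1406 (84.1%) had overlapping peaks, and the rest had peaks at separate places. BIRC2 was listed at both ages, but on neighbouring stretches of its 3′ UTR. The aged fold was 0.656 times the young one, and 187 of the 1515 pairs had a lower ratio. Over those pairs the median ratio was 0.961. With 1 shared base, the BIRC2 ratio sets nearly separate stretches side by side, unlike most of those pairs. The scaling of the folds is also not stated, so the ratio is a description.

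**Figure D1:**
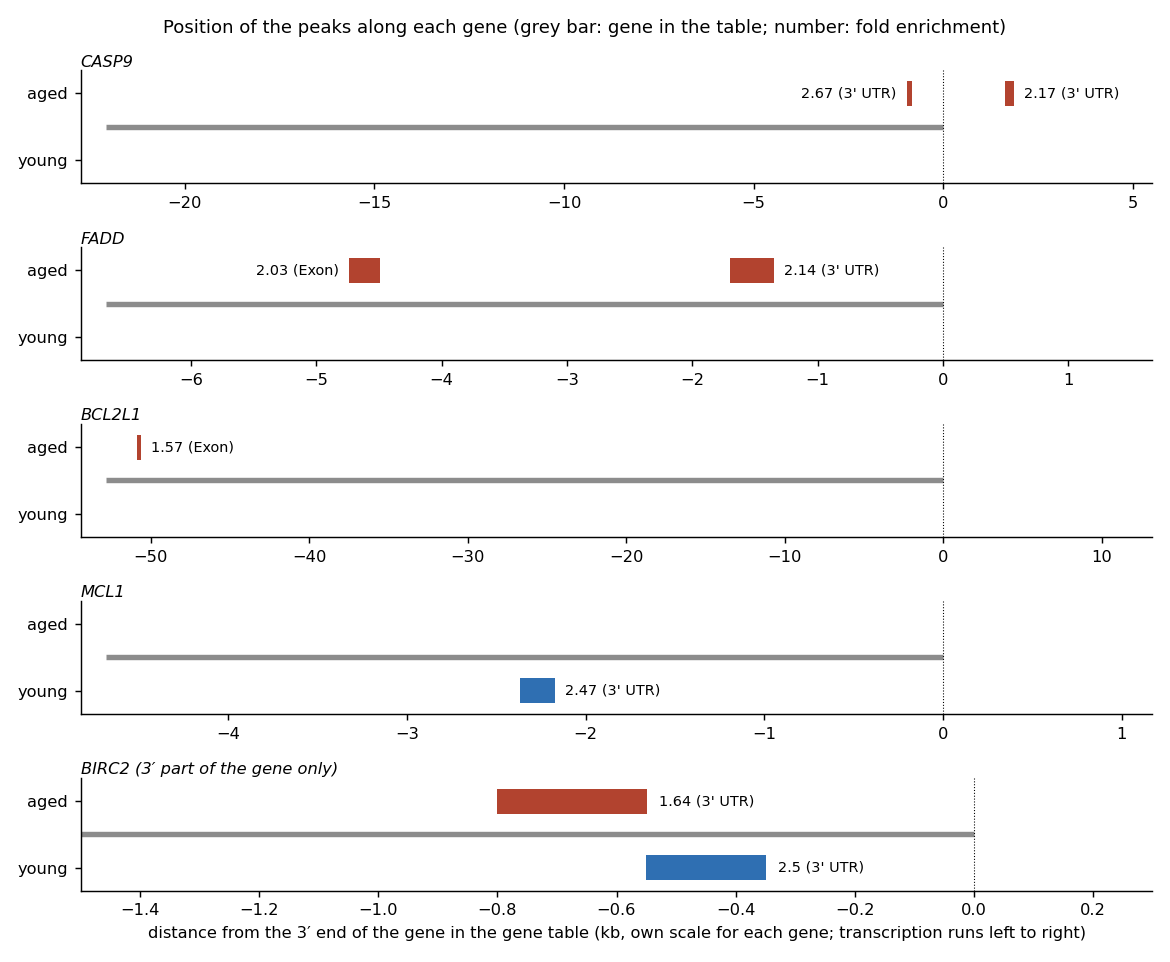
Peaks of the 5 genes (aged above, young below the grey gene bar) against the genomic distance in kb, introns included, from the 3′ end of the gene in the gene table, with fold and label beside each peak. The 3′ CASP9 peak lies past the gene end, the BCL2L1 peak lies near the 5′ end, and the BIRC2 peaks meet end to end.

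The peaks lay at different places along the 5 genes. Of the 8 peaks, 6 were labelled 3′ UTR and 2 exon, and none stop codon, the label of 15.3% of all aged and 41.3% of all young peaks. All 8 lay within 1 uninterrupted stretch by their deposited width. None ended at the last base of its gene in the table. Along the genome, introns included, the BIRC2 peaks were near the gene end and those of FADD and MCL1 were well inside their genes. That of BCL2L1 was near the 5′ end of the gene, and its place on the transcript is not given here.

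The strength of these peaks was moderate in fold and often weak in p. The aged peaks of the 5 genes had a median fold of 2.085, against 1.88 over all aged peaks, and a median log10 p of -5.17, against -6.22. The young peaks had folds of 2.47 and 2.50, against a young median of 2.05, and log10 p values of -10.1 and -8.63, against a young median of -15.3. CASP9, FADD, MCL1 and the young BIRC2 peak lay above their list's median fold, and BCL2L1 and the aged BIRC2 peak below it. Only BCL2L1 and the exon peak of FADD had a p smaller than their list's median. When the young list was shortened to the 3656 peaks with the smallest p, which leaves out 722 peaks, the BIRC2 peak dropped out and the MCL1 peak stayed. This cut the young list at a log10 p of -9.98 and left the aged list whole. BIRC2 then counted as aged alone, although its dropped young peak had a log10 p of -8.63 and its kept aged peak -4.52. At a fold of at least 2, BCL2L1 and the aged BIRC2 peak dropped out, which left CASP9 and FADD in the aged and MCL1 and BIRC2 in the young list.

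**Figure D2:**
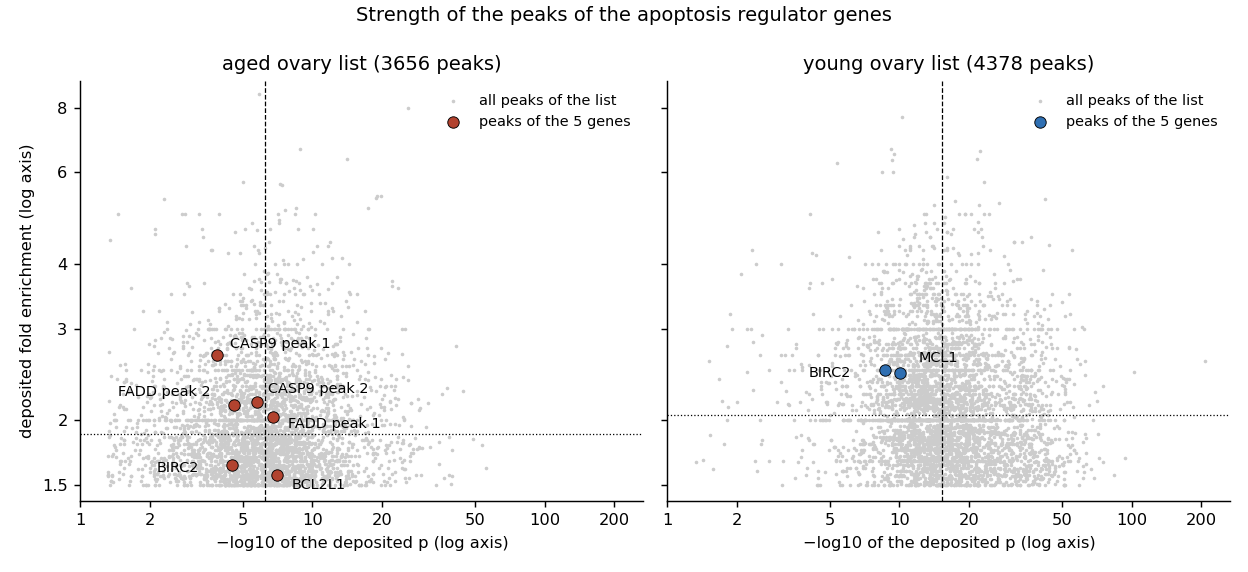
Deposited fold enrichment against −log10 of the deposited p (both log axes) for all peaks (grey) and the peaks of the 5 genes (coloured), aged list on the left and young list on the right, with dashed and dotted lines at the median p and fold of each list. The young peaks of MCL1 and BIRC2, with folds of 2.47 and 2.50, lie left of the median p, and BCL2L1 has the lowest fold of the coloured aged peaks at 1.57.

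The wider machinery was described with 57 genes in 12 role lists, which hold the 5 genes. Of these, 18 had a peak, 7 in the aged ovary alone, 6 at both ages and 5 in the young ovary alone, beside shares of 26.9%, 31.8% and 41.3% over all genes with a peak. With only peaks of a fold of at least 2, the counts were 3, 4 and 4. That cut lies above the median fold of the aged list (1.88) and below that of the young list (2.05). The shares over all genes at that cut are not given here, so the change is not a result about these genes. Without the 5 genes and with no such cut, the counts were 4, 5 and 4. With the 5 genes included, the median fold was 1.915 over the 18 aged peaks of the role lists and 2.45 over their 12 young peaks. Over all peaks of each age it was 1.88 and 2.05. The 39 genes with no peak in either list included all listed pore-forming members of the BCL2 family (BAX, BAK1 and BOK). APAF1, CYCS, DIABLO, AIFM1 and ENDOG, the apoptosome and mitochondrial factors beside HTRA2, also had none. Among initiator caspases, CASP2, CASP8 and CASP10 had no peak, so CASP9 was the one initiator caspase gene listed. The share of all annotated genes that had a peak is not given here. The number of genes with a peak in any role list therefore has no background and is a description.

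In the BCL2 family, 4 of 6 restraining genes had a peak, as did 1 of 8 BH3-only genes and none of 3 pore-forming ones. The 4 include BCL2L1 and MCL1, which were picked with their peaks known, so these counts do not compare the classes. BCL2A1, a restraining member, was listed at both ages. Its aged peak had a fold of 5.00, the highest among the aged peaks of the role lists, and an adjusted p of 0.00575. That peak crossed introns over 5734 bases on chromosome 18 (23787261 to 23792994). Its young peak (23787213 to 23787404) had a fold of 2.43 and an adjusted p of 5.01e-35. BCL2L2, which encodes BCL-w, was matched through the deposited symbol of LOC121815983 and is uncertain, with 1 aged peak of fold 1.60. BMF, a BH3-only gene whose product blocks restraining BCL2 proteins, had 2 aged 3′ UTR peaks of folds 1.83 and 1.57. BCL2 and BCL2L10 had no peak, nor did the BH3-only genes BID, BAD, BIK, BBC3, PMAIP1, BCL2L11 and HRK.

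Both listed genes for enzymes that set the lifetime of the MCL1 protein had a peak. This short list was drawn up with earlier results of these data known, so that count is only a description. HUWE1, a ubiquitin ligase for MCL1, had 1 aged 3′ UTR peak of fold 1.68 and no young peak. USP9X, which removes ubiquitin from MCL1, had an aged exon peak of fold 1.65 and an aged 3′ UTR peak of fold 2.28, against a young 3′ UTR peak of fold 4.17. The USP9X 3′ UTR peaks of the 2 ages shared 300 bases, the whole young peak.

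In the death receptor route, genes next to FADD were listed at either age. TNFSF10, which encodes the death ligand TRAIL, had 2 aged 3′ UTR peaks of folds 1.80 and 2.00 and 1 young peak of fold 3.40 that shared 150 bases with the 3′ one of them. CFLAR, which encodes the FADD-binding inhibitor cFLIP, had an aged peak of fold 2.83 labelled stop codon and a young peak of fold 2.29 labelled exon. They shared 51 bases, and the aged peak crossed an intron. RIPK1, a kinase of the same complexes and a target of cIAP1, had 1 young peak of fold 1.79 labelled stop codon with an adjusted p of 2.51e-52. TRADD and TRAF2 had no peak, nor did the death ligand and receptor genes FAS, FASLG, TNF, TNFRSF1A, TNFRSF10A, TNFRSF10B and TNFRSF21.

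Of the other IAP genes, BIRC3, which encodes cIAP2 and neighbours BIRC2 on chromosome 15, had 1 aged exon peak (6083807 to 6083957) of fold 2.00 and no young peak. XIAP, BIRC5, BIRC6 and BIRC7 had no peak. HTRA2, which encodes a mitochondrial protease that counters IAP proteins after its release, had 1 young peak of fold 1.54 labelled stop codon. All 3 listed genes of the nuclear end of the pathway had a peak, but that list was also drawn up with earlier results known. DFFB, the nuclease that cuts DNA between nucleosomes, had an aged 3′ UTR peak of fold 1.63 and a young one of fold 2.50, which had the same 3′ boundary and shared 151 bases, the whole young peak. DFFA, its inhibitor, had 2 young 3′ UTR peaks of folds 2.82 and 2.36, and PARP1, a DNA repair enzyme cut by caspases, had 1 young 3′ UTR peak of fold 1.55.

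All 6 genes of the role lists with peaks at both ages (BCL2A1, BIRC2, CFLAR, DFFB, TNFSF10 and USP9X) had overlapping peaks. Over all 1671 genes listed at both ages, 84.1% did. The contact of 1 base in BIRC2 was the shortest of the 6. The aged fold was lower than the young one in the overlapping peaks of BIRC2, DFFB, TNFSF10 and USP9X, and higher in BCL2A1 and CFLAR, whose aged peaks cross introns. Of all 1515 overlapping pairs within a gene, the aged fold was lower in 853 (56.3%).

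**Figure D3:**
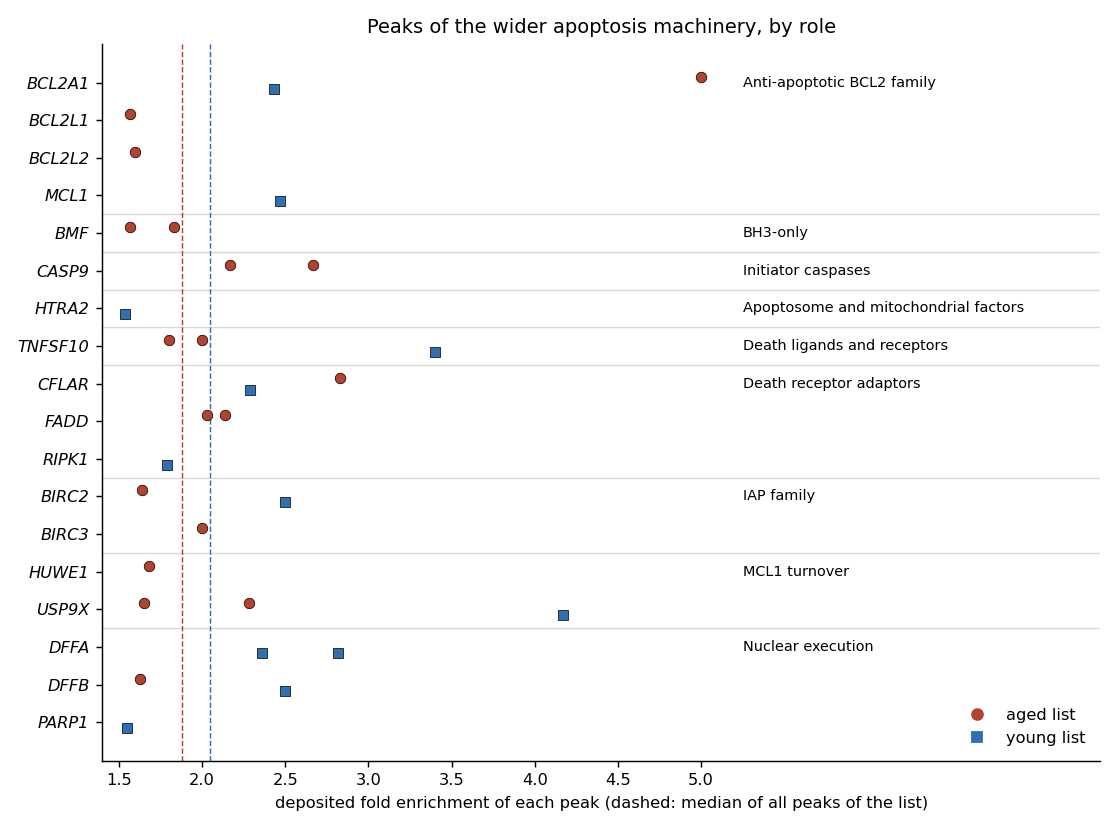
Deposited fold enrichment of every peak of the 18 genes with a peak, grouped by role, with aged peaks as circles and young peaks as squares and dashed lines at the list medians of 1.88 and 2.05. CASP9, FADD and BMF carry 2 aged peaks and no young one, DFFA carries 2 young peaks, and BCL2A1 has the highest aged fold at 5.00.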

How the data were processed

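The 4 samples are an anti-m6A capture and its input from ovaries of each age, grouped by their age and antibody labels. The libraries were stranded and made from total RNA, per the labels' protocols. The submitters' processing notes name ChIPseeker, a peak annotation tool; the aligner, peak caller, build and any pooling of animals are, in the sources used here, not given. Per the file headers, the authors give for each peak a p-value and adjusted p-value, and a linear fold (a ratio of capture to input by its name). The log10 p columns that the authors deposited were handled as a score. Printed starts are the deposited ones plus 1 base.

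Peaks were taken by gene name, and role list genes also by deposited symbol. Members and lists were chosen with earlier results of these data known; every role list gene with a peak was to be named. Some genes of the lists are not reported here. Peaks overlapped if they shared at least 1 base on the same strand, introns included. Gene identifiers matched the RefSeq table of ARS-UI_Ramb_v3.0 for 99.5% of aged and young peaks. Overlap code was tested on simulated data. Python 3.11.15, pandas 2.3.3, numpy 2.4.6 and matplotlib 3.10.9 were used.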

Additional observations from a re-analysis of the deposited data

How the results depend on the processing

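No paired analysis was possible because each age has 1 immunoprecipitate, numbered differently, and no test was made. Shares over all genes are not given here for any changed setting, so the class counts below have no background. With a fold of at least 2, the 5 genes were 2 aged-only, 0 shared and 2 young-only. The role lists then had 3 aged-only, 4 shared and 4 young-only genes, against 7, 6 and 5. With lists of equal length by p, which cut only the young list, the 5 genes had 1 young peak against 2, and 0 were shared. On the plus strand alone, which holds only CASP9 and FADD of the 5, there were 0 young peaks, 0 shared and 0 young-only genes, and the role lists had 2 aged-only, 3 shared and 2 young-only genes. The BIRC2 overlap was lost in both lists (0 peaks) when 50% of both peaks was required. The median percentile of the 5 genes' peaks by fold was 66.0 in the aged and 72.8 in the young list. By log10 p it was 36.2 and 13.6, and by fold among peaks of the same label 68.6 and 69.7. Counts with an adjusted p of at most 0.01, with exon or UTR labels only, with deposited rows as peaks and without LOC genes stayed within 1.5 times those reported. With exon or UTR labels only, the role lists had 8 aged-only, 4 shared and 4 young-only genes. That setting leaves out stop codon labels, held by 15.3% of all aged and 41.3% of all young peaks. Leaving out the CASP9 peak outside the table's gene was chosen after seeing the data. Overlap over exon blocks was not run, because no block columns are used here. Leaving out replicates was not possible with 1 list per age. Depth is unknown and limits every absence from a list.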

Other observations

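The deposited annotation attaches an apoptosis pathway term to 49 genes with a peak, all 5 genes among them. Of the 49, 17 were listed in the aged ovary alone, 11 at both ages and 21 in the young ovary alone. Over the 2248 genes with any pathway term the shares were 27.3%, 31.4% and 41.3%, and over the 49 they were 34.7%, 22.4% and 42.9%. The young-only genes of the term included GADD45A, GADD45B and GADD45G, stress-inducible genes of growth arrest, which were singled out after their values were seen. Their young folds were 1.81, 1.87 and 1.88, all below the young median of 2.05. Their log10 p values were -10, -24.6 and -28.3, against a young median of -15.3, so by p only GADD45A was on the weak side. GADD45A was labelled 3′ UTR, and GADD45B and GADD45G stop codon.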
